A study of Mus musculus with 6 samples.

Results

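The senescence secretome, leaving out chemokines and the interleukin 1 family, was followed through 33 named genes in sorted peritoneal macrophages. These are the genes for cytokines, matrix proteases and their inhibitors, the insulin-like growth factor (IGF) axis, growth factors, plasminogen activation and shed receptors, taken by gene symbol from a table of 54532 genes. All 33 were found, each once. Total RNA came from F4/80+ cells lavaged from the peritoneal cavity of C57BL/6 mice kept for 12 months. In both groups the mice carried a p16-Cre driver, which acts where the promoter of the p16 gene is active, and Rosa26-mtmg, a reporter that swaps membrane tdTomato for EGFP once Cre has acted. The EGFP fraction, called p16High, and the tdTomato fraction, called p16Low, gave 3 libraries each. Since recombination is permanent, EGFP marks past as well as present Cre activity. The labels give neither the sex of the mice nor whether replicates are separate animals, so p-values measure the spread between these libraries only.

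Senescent cells stop dividing and release a mixture of proteins that act on their neighbours. It holds inflammatory cytokines, growth factors, matrix metalloproteinases (MMPs) that cut the matrix, tissue inhibitors of these (TIMPs), plasminogen activators, and receptors that are cut from the cell surface and act as soluble decoys. Many of the same genes belong to the normal repertoire of macrophages. The transcription factors NF-kB, C/EBP beta and AP-1 are known to drive much of this mixture in other cells.

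The promoters of 3 members are shown, because Igfbp4 and Spp1 had the 2 smallest p-values among the 19 members tested and because Il6 is the factor most often used to describe the secretome. Each run is the 250 bases before the RefSeq start on GRCm38.p6, on the strand of the gene, and capitals mark matches to the motifs searched below.
Igfbp4: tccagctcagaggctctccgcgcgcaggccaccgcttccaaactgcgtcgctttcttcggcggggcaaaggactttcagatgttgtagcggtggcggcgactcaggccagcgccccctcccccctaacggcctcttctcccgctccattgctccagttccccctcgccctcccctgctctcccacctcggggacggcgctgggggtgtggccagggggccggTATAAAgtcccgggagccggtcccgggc
Spp1: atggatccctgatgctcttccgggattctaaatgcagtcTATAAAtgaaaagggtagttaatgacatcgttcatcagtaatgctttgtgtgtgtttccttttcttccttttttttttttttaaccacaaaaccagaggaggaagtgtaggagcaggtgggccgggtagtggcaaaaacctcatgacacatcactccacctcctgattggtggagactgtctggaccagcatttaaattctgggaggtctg
Il6: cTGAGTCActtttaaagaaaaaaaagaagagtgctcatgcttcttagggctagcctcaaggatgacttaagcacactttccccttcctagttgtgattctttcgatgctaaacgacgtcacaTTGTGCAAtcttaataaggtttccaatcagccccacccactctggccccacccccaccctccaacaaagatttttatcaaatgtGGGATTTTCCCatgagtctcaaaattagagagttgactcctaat
The Igfbp4 window lies at chr11:99040994-99041243, the Spp1 window at chr5:104434861-104435110 and the Il6 window at chr5:30012864-30013113, all on the plus strand. A window was found for 25 of the 33 members, and not for Il10, Il15, Osm, Mmp2, Mmp9, Mmp19, Plau and Ereg. The NF-kB motif, spelled GGGA, then any 4 bases, then CC, was in 7 of these 25 (28%) and in 17.3% of the windows of all 27025 genes. The AP-1 motif, TGANTCA, was in 7 (28%, against 6.87% of all windows), the C/EBP motif, TTGCNNAA, in 5 (20%, against 9.55%) and the TATA box, TATAAA, in 6 (24%, against 13%). Both strands were searched. Where a gene had several windows, the one nearest its deposited gene start was used for members, and the first listed for the share over all genes. The Igf1 window, which held NF-kB and AP-1 motifs, lay 2846 bases from the deposited gene start. In the Il6 window the NF-kB motif matched on both strands at overlapping places, and AP-1 and C/EBP motifs stood further upstream. The Igfbp4 and Spp1 windows held the letters TATAAA and none of the other 3 motifs. They began 28 bases before the start in Igfbp4 and 211 bases before it in Spp1, so the 2 matches are not alike in place.

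Library totals were 16.52 to 19.57 M reads in p16High cells and 18.46 to 20.87 M in p16Low cells. The sort was checked on Cdkn2a, which encodes p16: it stood at 6.78 ± 1.2 FPKM (SD, n = 3) in p16High cells and 1.09 ± 0.559 FPKM (SD, n = 3) in p16Low cells (log2 fold change 1.92, SE 0.234, adjusted p = 0.0092 by limma). Its adjusted p missed the threshold with no filter (0.114) and without p16High replicate 1 (0.0698) or p16High replicate 2 (0.0671), and was 0.000437 without p16Low replicate 2. FPKM are reads per kilobase of transcript, scaled to the total reads of the library. p16Low replicate 2 stood apart: its correlation with any other library was 0.956 to 0.967, while each of the other 5 had a partner at 0.990 or 0.991. The macrophage markers Adgre1, Csf1r, Itgam, Cd68, Mertk and Lyz2 were above 0 in every library. In p16Low replicate 2 Adgre1 was at 1236 FPKM and Csf1r at 156 FPKM. The other 5 libraries held 2326 to 2751 FPKM of Adgre1 and 329 to 389 FPKM of Csf1r. Adgre1 and Cd68 were higher in every p16High library and Lyz2 was lower, while Csf1r, Itgam and Mertk overlapped between the groups. Summed markers of mesothelial and stromal cells reached at most 0.156 FPKM, with Msln, Upk3b, Col1a2 and Pdgfra at 0 throughout, and those of T and NK cells at most 0.401 FPKM, with Trac, Trbc2 and Ncr1 at 0. The 5 summed markers of large peritoneal macrophages stood at 3419 to 3539 FPKM in p16High cells and 2846 to 2996 FPKM in p16Low cells; of these Vsig4 rose (1136 ± 10.3 FPKM in p16High cells, 670 ± 58.6 FPKM in p16Low cells; limma, adjusted p = 0.0255, up to 0.184 over the alternatives), while Gata6, Icam2 and Rarb overlapped between the groups. The 6 summed markers of small peritoneal or monocyte-derived macrophages stood at 32.4 to 38.7 FPKM in p16High cells and 70.5 to 81.3 FPKM in p16Low cells. Ccr2, Plac8, Chil3 and Napsa were lower in every p16High library, while Irf4 and Ly6c2 overlapped between the groups. The 4 summed B cell markers stood at 37.4 to 62.5 FPKM in p16High cells and 72.3 to 81.7 FPKM in p16Low cells. Cd79a, Cd79b and Ms4a1 were lower in every p16High library, while Ighm overlapped. The 6 mast cell markers summed to 1.15 to 3.64 FPKM in p16High cells and 0 to 0.235 FPKM in p16Low cells, with Kit at 0, and the 4 dendritic markers to 14.6 to 25 FPKM in p16High cells and 8.30 to 10 FPKM in p16Low cells, nearly all of it Cd209a, while Flt3, Xcr1 and Zbtb46 overlapped between the groups. The 6 neutrophil markers summed to 22.3 to 31.9 FPKM in p16High cells and 28.1 to 50.4 FPKM in p16Low cells, nearly all of it S100a8, with S100a9, Mpo and Ngp at 0. The 4 eosinophil markers summed to at most 0.823 FPKM. The 10 immediate early genes, which mark handling, summed to 927 to 1020 FPKM in p16High cells and 859 to 965 FPKM in p16Low cells. The part of any of these in the results was not tested, and in sorted bulk samples fewer cells of a type and less RNA per cell cannot be told apart.

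The question of the comparison was whether p16High macrophages express the secretome differently from p16Low macrophages. No member passed the threshold with all 6 libraries. The nearest was Igfbp4, lower in every p16High library, and its partner in the IGF axis, Igf1, was also lower in every p16High library. Spp1, Timp2, Il15 and Gdf15 were higher in every p16High library, by ratios of mean FPKM between 1.26 and 1.67. Several of the best known factors were at 0 reads in every library, among them Areg, Ereg and Mmp3, and Csf2 had 1 read in all, while Tnf was detected at a low level in all 6 libraries. A 0 here says only that no reads were counted for a gene. The neutrophil marker S100a9 was at 0 in every library too, while S100a8 stood at 22.33 to 49.85 FPKM. Whether the zeros reflect absence of the transcripts was not tested.

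Of the 33 members, 19 passed the filter of at least 1 FPKM in at least 3 libraries and were tested with limma on log2(FPKM + 1), with p-values adjusted over all 10895 tested genes. Of these 19, 0 were called at an adjusted p under 0.05, where 0.89% of all tested genes were. An unadjusted p under 0.05 was reached by 6 members, against 7.22% of all tested genes, and limma-voom on reads worked back from FPKM called 0, where 0.808% of all tested genes were called. With median-of-ratios scaling Mmp2 fell below the filter, and of the 18 members tested limma called 1, Igfbp4, beside 1.06% of the genes tested. The groups did not overlap for 8 of the 19, with all p16High libraries above in 6 and below in 2; among all tested genes 15.9% did not overlap. Mmp2 is 1 of the 6 above and entered the test through its p16High libraries alone, so the filter itself placed it there. The log2 fold change was positive for 15 members (78.9%), Mmp2 again among them, and negative for 4, where 58.1% of all tested genes were positive. Its median over the 19 was 0.31, beside 0.05 over all tested genes.

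These counts moved with p16Low replicate 2. It was the lowest of the 6 libraries for 13 of the 19 members (68.4%), and for 46.5% of all tested genes. Without it, 11 members were positive and 8 negative, where 4950 of all tested genes were positive and 5945 negative, and the median was 0.05, beside -0.02 over all tested genes. Without it 3 members passed, beside 2.76% of all tested genes: Timp2 and Spp1 rose and Igfbp4 fell.

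**Figure D1:**
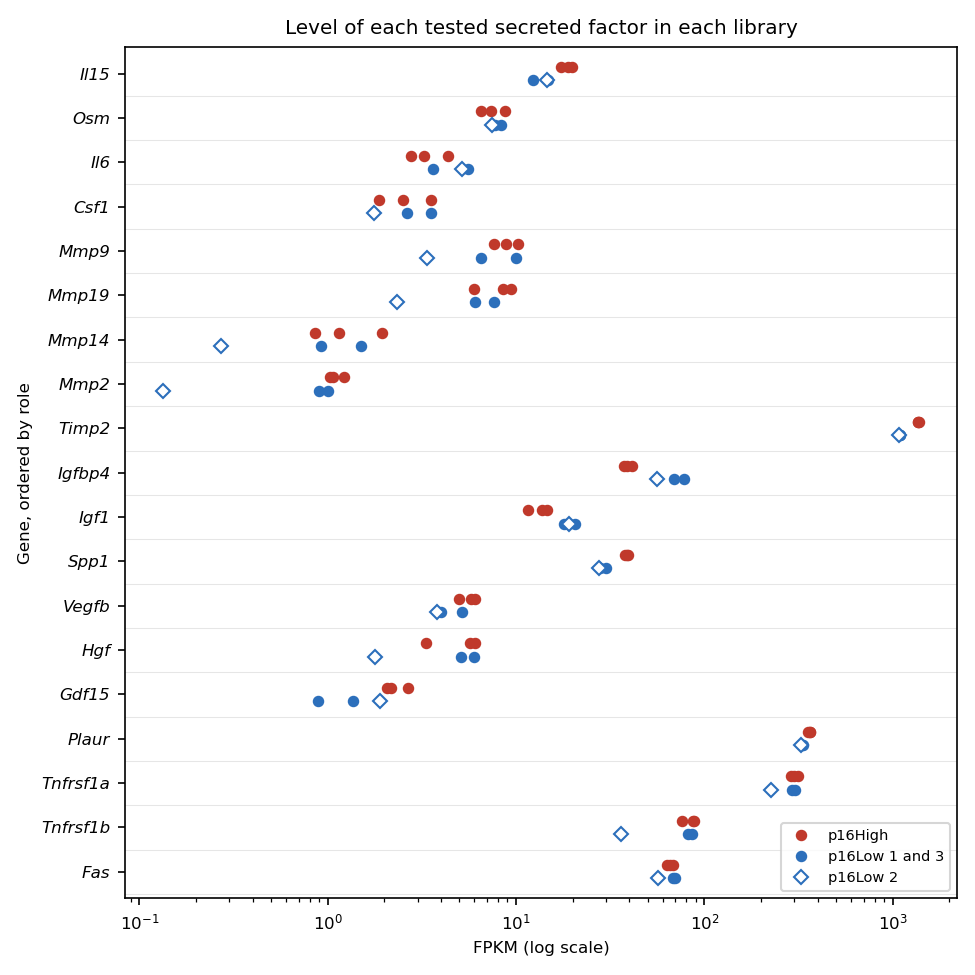
FPKM on a log axis of the 19 tested members in each library, with p16High above p16Low in each row and p16Low replicate 2 as an open diamond. The open diamond is the lowest point for 13 members, among them all 4 matrix proteases.

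The IGF axis holds Igf1, a growth factor that macrophages supply to tissue, and the binding proteins Igfbp4, which holds IGF away from its receptor, and Igfbp7. Igfbp4 (ENSMUSG00000017493, chromosome 11, 99041244 to 99054392, plus strand), whose promoter is given above, stood at 37.6, 39.0 and 41.0 FPKM in p16High cells and 69.1, 56.2 and 77.7 FPKM in p16Low cells. The 3 p16High libraries lay close together and below all p16Low libraries. The means were 39.2 ± 1.75 FPKM in p16High cells and 67.7 ± 10.8 FPKM in p16Low cells (SD, n = 3 each), a ratio of 0.579. This gave a log2 fold change of -0.76 (SE 0.152; limma, adjusted p = 0.0727). Its adjusted p was 0.0261 with median-of-ratios scaling, 0.1 with limma-voom, 0.0277 with both and 0.000123 without p16Low replicate 2, and over all 13 alternatives it ran up to 0.359.

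Igf1 stood at 13.7, 14.6 and 11.6 FPKM in p16High cells and 20.6, 19.0 and 17.9 FPKM in p16Low cells. The groups did not overlap, and p16Low replicate 2 lay between the other 2 p16Low libraries. The log2 fold change came to -0.50 (SE 0.155; limma, adjusted p = 0.366) with 6 libraries and -0.50 (SE 0.136, adjusted p = 0.0787) without p16Low replicate 2. There were 2.66 to 3.54 FPKM of Igfbp4 for each FPKM of Igf1 in p16High cells and 2.95 to 4.34 in p16Low cells, ranges that overlap. Igfbp7, a secreted protein that binds IGF weakly, had 0, 1 and 4 reads in p16High cells and 3, 0 and 1 reads in p16Low cells.

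Of 7 other genes of the IGF axis, none passed the filter: Igfbp2, Igfbp3, Igfbp5 and Pappa, the protease that cuts IGFBP4, were at 0 in every library, and Igf2, Igfbp6 and Htra1 stayed at or below 0.436 FPKM. The receptor genes were tested. Igf1r stood at 1.46 ± 0.426 FPKM in p16High cells and 1.06 ± 0.495 FPKM in p16Low cells, and Igf2r, which takes up IGF2 for breakdown, at 5.74 ± 1.93 FPKM in p16High cells and 3.70 ± 0.242 FPKM in p16Low cells (SD, n = 3; adjusted p = 0.72). Insr, the insulin receptor gene, stood at 21.6 ± 2.65 FPKM in p16High cells and 16.5 ± 2.57 FPKM in p16Low cells (adjusted p = 0.72).

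**Figure D2:**
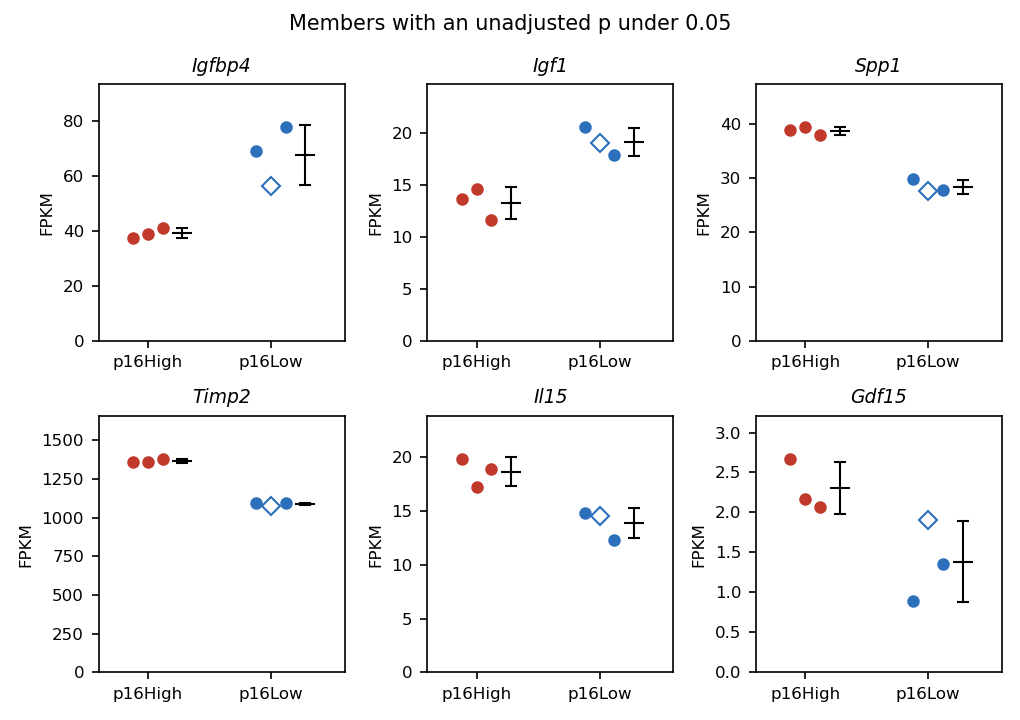
FPKM per library of the 6 members with an unadjusted p under 0.05, with p16High left of p16Low, an open diamond for p16Low replicate 2, and the mean with its SD beside each group (n = 3). Igfbp4 and Igf1 are lower in every p16High library, and Spp1, Timp2, Il15 and Gdf15 higher.

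Among the growth factors, Spp1 encodes osteopontin, a matrix protein and cytokine that binds integrins and CD44. Spp1 (ENSMUSG00000029304, chromosome 5, 104435118 to 104441050, plus strand) stood at 38.8, 39.4 and 37.9 FPKM in p16High cells and 29.9, 27.5 and 27.8 FPKM in p16Low cells. Both groups were tight and did not overlap. The log2 fold change came to 0.43 (SE 0.127, adjusted p = 0.315 by limma), and 0.41 (SE 0.095, adjusted p = 0.0343) without p16Low replicate 2. By limma the adjusted p of Spp1 was 0.443 with median-of-ratios scaling and 0.984 without p16High replicate 2. Of the exon bases of Spp1, 18.8% lie within an exon of the predicted gene Gm42793, so reads there can be lost or shared. Its receptor genes Cd44 and Itgav had log2 fold changes of -0.03 each, with 94.9 ± 4.37 FPKM in p16High cells against 97.2 ± 13.7 FPKM in p16Low cells for Cd44. A further receptor gene, Itgb3, had a log2 fold change of -0.215 (adjusted p = 0.773 by limma). Without p16Low replicate 2 the log2 fold change was -0.146 for Cd44, -0.135 for Itgav and -0.276 for Itgb3.

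Gdf15, a stress-induced hormone of the TGF-beta family, stood at 2.67, 2.17 and 2.07 FPKM in p16High cells and 0.889, 1.90 and 1.36 FPKM in p16Low cells. Here p16Low replicate 2 was the highest of its group. The log2 fold change came to 0.49 (SE 0.208; limma, adjusted p = 0.685), from 74, 62 and 50 reads in p16High cells and 24, 58 and 40 in p16Low cells. Vegfb, a ligand of the VEGF family, stood at 5.59 ± 0.550 FPKM in p16High cells and 4.33 ± 0.749 FPKM in p16Low cells (SD, n = 3; adjusted p = 0.747). Hgf, the ligand of the receptor MET, stood at 5.03 ± 1.5 FPKM in p16High cells and 4.29 ± 2.22 FPKM in p16Low cells (adjusted p = 0.835), and its fold change turned negative without p16Low replicate 2. Met was at 0 in every library. Vegfa, the main angiogenic factor of the family, stood at 0.515, 0.249 and 0.0492 FPKM in p16High cells and 0.044, 0 and 0.525 FPKM in p16Low cells. The EGF receptor ligands Areg and Ereg had 0 reads in all 6 libraries, where 3 reads in a library would have been 0.118 to 0.149 FPKM for Areg.

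TIMPs block MMPs, and TIMP2 also takes part in the activation of MMP2 by MMP14. Timp2 (ENSMUSG00000017466, chromosome 11, 118301069 to 118355740, minus strand) was the most abundant member. It stood at 1361, 1360 and 1381 FPKM in p16High cells and 1094, 1078 and 1094 FPKM in p16Low cells, from 44688 to 58891 reads a library. The gap between the groups was far wider than the spread within either. The ratio of means was 1.26 and the log2 fold change 0.33 (SE 0.105, adjusted p = 0.4 by limma); limma shares its estimate of spread between genes, so the SE is wider than this gene's own spread. Without p16Low replicate 2 the log2 fold change was 0.32 (SE 0.059, adjusted p = 0.00795).

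Timp1, the inhibitor most often induced in inflammation, was low, at 0.123, 0.476 and 0.212 FPKM in p16High cells and 0.695, 0.838 and 0.174 FPKM in p16Low cells. The groups overlapped. Timp3, which inhibits the sheddase ADAM17 as well as MMPs, had 0 reads in every library, and 21.3% of its exon bases lie within exons of Syn3.

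The 4 matrix proteases that were tested were lowest in p16Low replicate 2. Mmp9, a gelatinase, stood at 7.63, 10.2 and 8.80 FPKM in p16High cells and 10.0, 3.37 and 6.52 FPKM in p16Low cells. Mmp19, a protease of basement membrane proteins, stood at 9.39, 8.53 and 5.98 FPKM in p16High cells and 6.03, 2.33 and 7.61 FPKM in p16Low cells, and 28.3% of its exon bases lie in exons of other genes. Apart from p16Low replicate 2, the p16High and p16Low libraries overlapped for both.

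Mmp14, the membrane-bound protease that activates MMP2, stood at 1.93, 1.15 and 0.853 FPKM in p16High cells and 0.916, 0.27 and 1.5 FPKM in p16Low cells. Mmp2, the other gelatinase, had 29 reads in each p16High library and 24, 4 and 29 in p16Low cells, or 1.06, 1.03 and 1.22 FPKM in p16High cells and 0.902, 0.133 and 0.999 FPKM in p16Low cells. All but p16Low replicate 2 were close to each other. Mmp2 passed the filter only because its 3 p16High libraries reached 1 FPKM, while no p16Low library did. The filter itself thus set its direction and its lack of overlap. The log2 fold changes of these 4 were 0.31 to 0.59 with 6 libraries, with adjusted p from 0.747 to 0.78 by limma, and 0.05 to 0.18 without p16Low replicate 2. For the low pair they were larger on other scales: 0.92 with a pseudocount of 0.1 and 1.13 with limma-voom for Mmp2, and 0.67 and 0.79 for Mmp14.

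Mmp13, a collagenase, had 9, 0 and 14 reads in p16High cells and 0, 4 and 1 in p16Low cells. Mmp12, the macrophage elastase, had 10, 1 and 5 reads in p16High cells and 10, 1 and 6 in p16Low cells, and Mmp3, stromelysin, had 0 in every library. Beside these, Ctsb, a lysosomal protease that is also secreted, stood at 2431 ± 22.5 FPKM in p16High cells and 1959 ± 362 FPKM in p16Low cells (SD, n = 3; adjusted p = 0.72), and p16Low replicate 2 was the lowest there too, at 1542 FPKM.

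**Figure D3:**
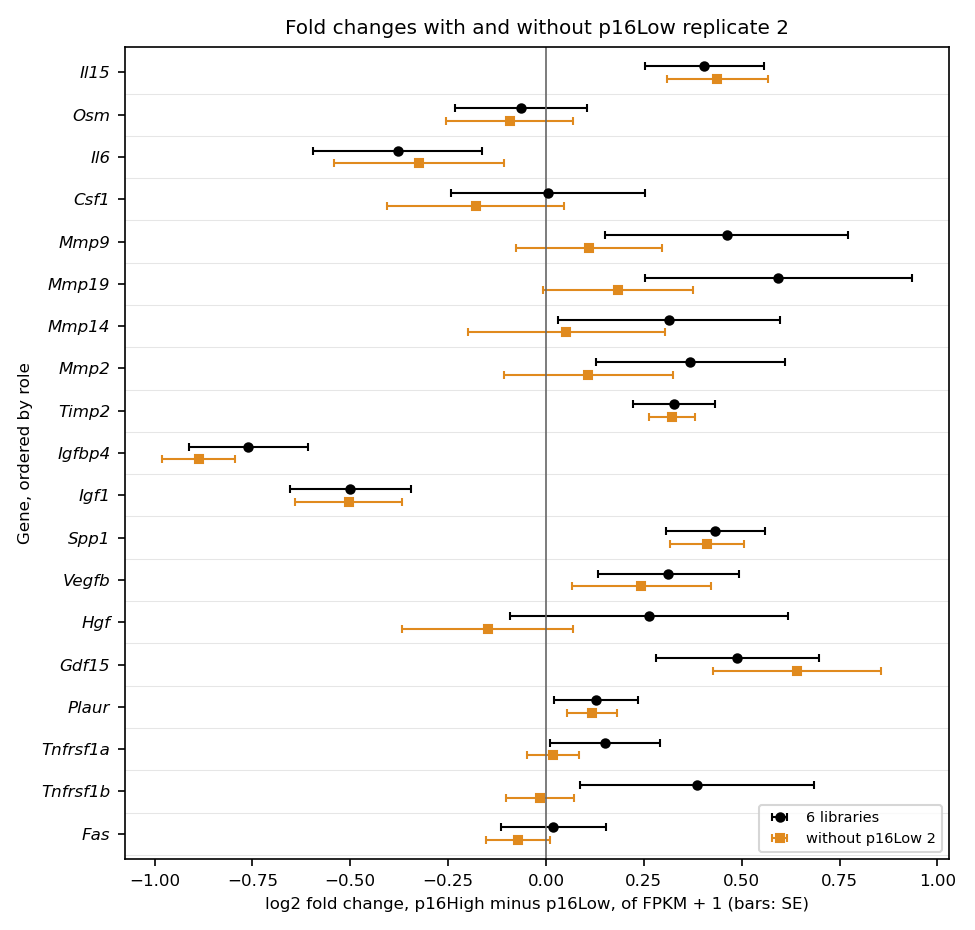
Log2 fold change with its SE of the 19 tested members, p16High minus p16Low, with all 6 libraries (circles) and without p16Low replicate 2 (squares). The matrix proteases and Tnfrsf1b move towards 0 without that library, while Igf1, Spp1 and Timp2 stay close to their place. Igfbp4 moves further from 0, from -0.76 to -0.89.

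Among the cytokines, Il15, which sustains NK cells and memory T cells, was the most abundant. It stood at 19.9, 17.3 and 18.9 FPKM in p16High cells and 14.8, 14.5 and 12.3 FPKM in p16Low cells. The groups did not overlap. The log2 fold change came to 0.40 (SE 0.151; limma, adjusted p = 0.564). Il15ra, which presents IL-15 on the surface, stood at 14.2 ± 0.716 FPKM in p16High cells and 15.1 ± 1.5 FPKM in p16Low cells (adjusted p = 0.885), and there were 1.18 to 1.41 FPKM of Il15 for each FPKM of Il15ra in p16High cells and 0.773 to 1.09 in p16Low cells.

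Il6, the cytokine most tied to senescence, stood at 4.35, 3.25 and 2.76 FPKM in p16High cells and 5.57, 5.19 and 3.62 FPKM in p16Low cells. The groups overlapped, and the mean was lower in p16High cells (log2 fold change -0.38, SE 0.215, adjusted p = 0.747 by limma; -0.32 without p16Low replicate 2). Its receptor genes Il6ra and Il6st stood at 13.3 ± 1.55 and 20.8 ± 0.891 FPKM in p16High cells and 11.4 ± 1.14 and 19.2 ± 6.14 FPKM in p16Low cells. Osm, a cytokine of the IL-6 family, stood at 7.51 ± 1.13 FPKM in p16High cells and 7.85 ± 0.431 FPKM in p16Low cells, and Csf1, the growth factor of macrophages, at 2.64 ± 0.835 FPKM in p16High cells and 2.64 ± 0.880 FPKM in p16Low cells.

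Il10, a cytokine that restrains inflammation, was below the filter. It had 32, 17 and 43 reads in p16High cells and 16, 3 and 10 in p16Low cells, or 1.29, 0.663 and 1.99 FPKM in p16High cells and 0.662, 0.110 and 0.379 FPKM in p16Low cells. The lowest p16High library was just above the highest p16Low library. With a filter of 0.1 FPKM it had a log2 fold change of 0.72 (SE 0.239; limma, adjusted p = 0.444). Tnf, a central inflammatory cytokine of macrophages, had 8 to 10 reads in p16High cells and 7 to 15 in p16Low cells. Lif, of the IL-6 family, had 0 to 25 reads in p16High cells and 0 to 13 in p16Low cells, and Csf2, which encodes GM-CSF, had 1 read in all, in p16Low replicate 1. The IL-10 receptor genes Il10ra and Il10rb stood at 35.9 ± 0.505 and 145 ± 5.66 FPKM in p16High cells and 30.6 ± 12.2 and 117 ± 12.5 FPKM in p16Low cells (Il10rb, adjusted p = 0.655).

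**Figure D4:**
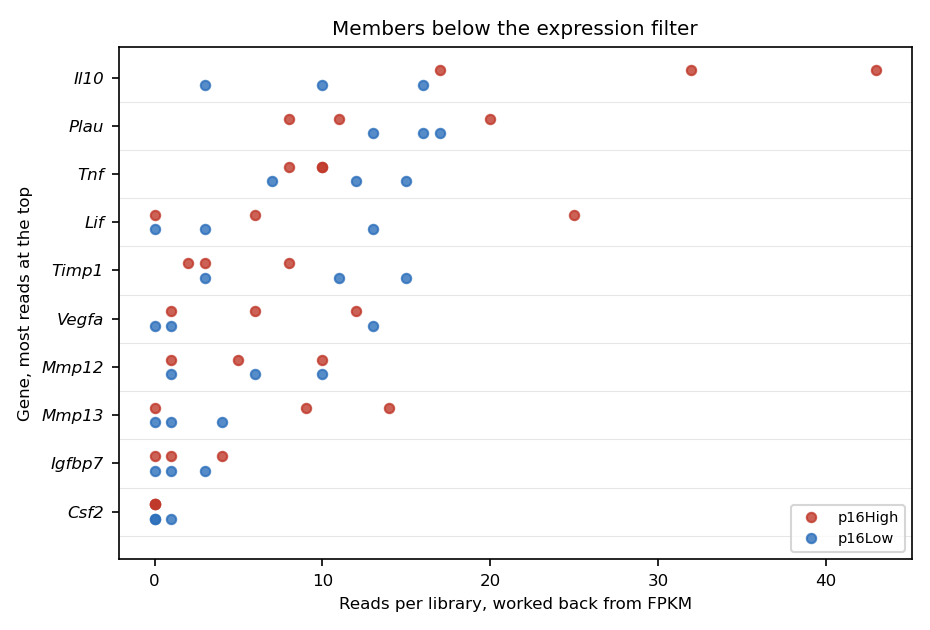
Reads per library of the 10 members that were below the filter and had at least 1 read, with p16High above p16Low in each row. Il10 is the one row in which every p16High point lies right of every p16Low point; 4 more members, Areg, Ereg, Mmp3 and Timp3, had 0 reads and are not drawn.

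Plaur, the receptor that holds the protease urokinase on the cell surface, was the second most abundant member. It stood at 364, 365 and 354 FPKM in p16High cells and 335, 326 and 329 FPKM in p16Low cells, without overlap, a ratio of means of 1.09 (log2 fold change 0.13, SE 0.107, adjusted p = 0.773 by limma). Plau, which encodes urokinase itself, stood at 0.307, 0.216 and 0.641 FPKM in p16High cells and 0.459, 0.33 and 0.447 FPKM in p16Low cells. The receptor was thus abundant and its ligand low in both groups. Serpinb2, an inhibitor of urokinase, stood at 1852, 1879 and 1949 FPKM in p16High cells and 1745, 951 and 1663 FPKM in p16Low cells (adjusted p = 0.737). Plat and Plg were at 0 in every library.

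The shed receptors did not differ beyond the spread of the p16Low group. Tnfrsf1a and Tnfrsf1b, the receptors of TNF, stood at 300 ± 11.6 and 83.5 ± 6.62 FPKM in p16High cells and 272 ± 41.8 and 68.2 ± 28 FPKM in p16Low cells (SD, n = 3; adjusted p = 0.78 and 0.759). Tnfrsf1b was at 35.95 FPKM in p16Low replicate 2 and at 75.9 to 88.0 FPKM in the other 5 libraries. Fas, a death receptor, stood at 65.6 ± 2.52 FPKM in p16High cells and 65.0 ± 7.06 FPKM in p16Low cells (adjusted p = 0.966), and its ligand gene Fasl was at 0. The proteases that release such receptors were measured too. Adam17 stood at 31.9 ± 1.71 FPKM in p16High cells and 29.1 ± 12.8 FPKM in p16Low cells. Adam10, another sheddase gene, stood at 65.0 ± 2.305 FPKM in p16High cells and 60.5 ± 27.3 FPKM in p16Low cells. Without p16Low replicate 2 the log2 fold changes were -0.185 for Adam17 and -0.218 for Adam10. Rhbdf1, which guides ADAM17 to the surface, stood at 2.2 ± 0.356 FPKM in p16High cells and 1.25 ± 0.560 FPKM in p16Low cells (log2 fold change 0.53, adjusted p = 0.653 by limma). The related Rhbdf2 stood at 14.2 ± 2.52 FPKM in p16High cells and 10.6 ± 3.84 FPKM in p16Low cells (adjusted p = 0.747 by limma).

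By level, Timp2, Plaur and Tnfrsf1a together made up 83.6% to 87.2% of the summed FPKM of the 33 members in every library. That sum was 2336 ± 14.1 FPKM in p16High cells and 1994 ± 109 FPKM in p16Low cells (SD, n = 3). Without these 3 genes the sums were 308 ± 7.90 FPKM in p16High cells and 303 ± 55.0 FPKM in p16Low cells, with p16Low replicate 2 at 240 FPKM. The 3 genes of the IGF axis summed to 51.2, 53.6 and 52.9 FPKM in p16High cells and 89.8, 75.2 and 95.6 FPKM in p16Low cells, and the 7 growth factors to 52.7, 51.1 and 51.9 FPKM in p16High cells and 39.9, 35.0 and 40.9 FPKM in p16Low cells. Neither pair of ranges overlapped, and these sums were not tested. Igfbp4 made up most of the IGF axis sum and Spp1 most of the growth factor sum. The sums of the cytokines, the protease inhibitors and the plasminogen activation genes did not overlap either. Those of the matrix proteases and the shed receptors did. For the cytokines the lowest p16High sum was 32.5 FPKM and the highest p16Low sum 32.4 FPKM. Timp2 made up nearly all of the inhibitor sum and Plaur nearly all of the plasminogen activation sum, so these sums repeat 1 gene each. Among single tested genes 15.9% did not overlap, and no such share was worked out for sums.

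A list of 92 receptors and partners of the members was read out from the same fit. Of these 50 were tested and 0 passed in limma, where 0.89% of all tested genes did, and 0 passed with limma-voom. An unadjusted p under 0.05 was reached by 3, where 7.22% of all tested genes reached it. The log2 fold change was positive for 38 (76%), where 58.1% of all tested genes were positive, and its median was 0.18. The smallest p-values belonged to Bmp2, a growth factor of the TGF-beta family, at 9.17 ± 0.561 FPKM in p16High cells and 6.53 ± 1.02 FPKM in p16Low cells (adjusted p = 0.609), to Rhbdf1 and Il10rb, and then to Insr, Csf2ra and Ctsb. Csf2ra, a subunit of the GM-CSF receptor, stood at 125 ± 11.4 FPKM in p16High cells and 101 ± 14.5 FPKM in p16Low cells. Of the 15 tested cytokine receptor and feedback genes, 14 were positive and p16Low replicate 2 was the lowest library for 14 (93.3% for both), where 58.1% of all tested genes were positive and 46.5% were lowest in that library. Without it 7 were positive and 8 negative, where 4950 of all tested genes were positive and 5945 negative. Without it 1 of the 50 tested partners was called, where 2.76% of all tested genes were. This was Serpinb6a, an intracellular protease inhibitor, which rose. It stood at 372 ± 8.37 FPKM in p16High cells and 324 ± 34.7 FPKM in p16Low cells (limma, adjusted p = 0.0277 without that library, 0.747 with it).

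**Figure D5:**
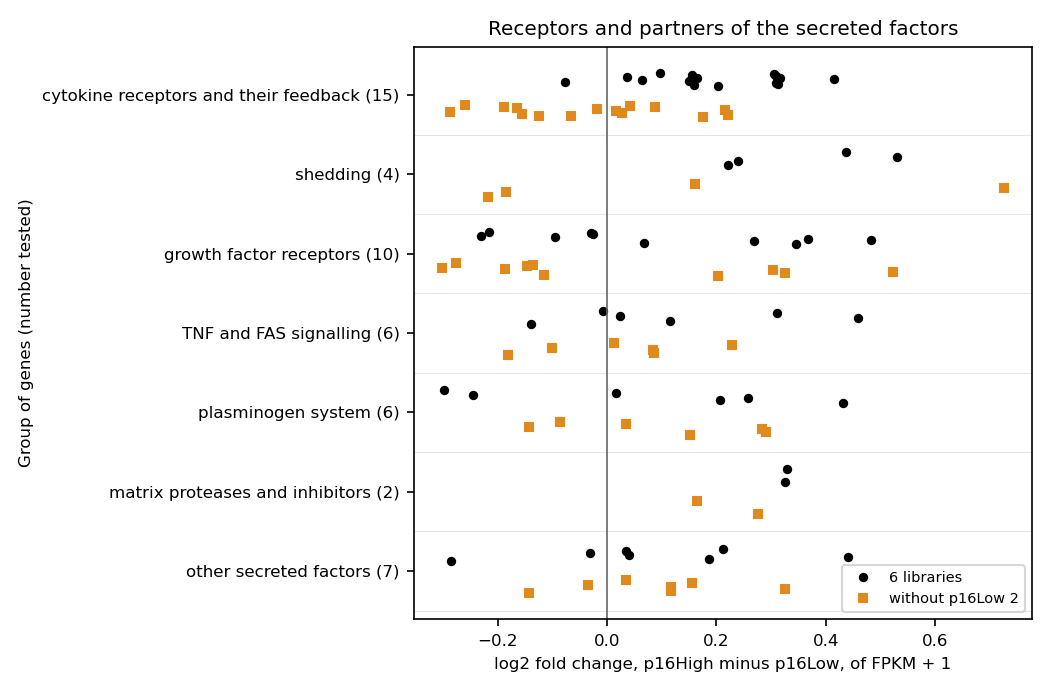
Log2 fold change, p16High minus p16Low, of the 50 tested receptors and partners, each point 1 gene, with 6 libraries (circles) and without p16Low replicate 2 (squares). The 15 cytokine receptor and feedback genes lie mostly right of 0 with 6 libraries and on both sides of it without that library.

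Of 26 regulators of the secretome, 24 were tested, 1 fell and 0 rose, beside 78 that fell and 19 that rose among all 10895 tested genes (0.89% in all). The 1 was Hmgb2, a chromatin protein also tied to dividing cells, at 25.2 ± 3.22 FPKM in p16High cells and 56.0 ± 12.4 FPKM in p16Low cells (SD, n = 3), and its log2 fold change came to -1.10 (SE 0.183; limma, adjusted p = 0.0342). Its adjusted p was 0.000402 without p16Low replicate 2, and it missed the threshold without any 1 of the other 5 libraries, at 0.0607 to 0.195. It also missed it when unfiltered (0.142) and under the replicate block (0.0637). Notch1, a receptor that shapes the secretome, stood at 16.4 ± 0.287 FPKM in p16High cells and 11.4 ± 3.12 FPKM in p16Low cells (adjusted p = 0.614). Mtor, Rela, Jun and Mapkapk2 followed by p-value, with adjusted p from 0.747 to 0.774. The NF-kB subunit gene Nfkb1 stood at 15.4 ± 1.82 FPKM in p16High cells and 16.2 ± 0.270 FPKM in p16Low cells, and Cebpb at 529 ± 24.8 FPKM in p16High cells and 544 ± 67.2 FPKM in p16Low cells.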

How the data were processed

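The deposited table holds FPKM values, made by the authors. Per the submitters' processing notes the tools were Bowtie2 2.2.3, TopHat2 2.0.12 and HTSeq 0.6.1; the sources used here do not give their roles, their settings or a genome build. Of the deposited IDs, 54494 of 54532 were in GENCODE M21, 98.3% with identical bounds, hence the use of GRCm38 positions. Whether reads were counted by strand is not stated.

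Whole reads were worked back as FPKM times length over a step for each library. With the mean annotated transcript length, rounded down, 96.2% of 22566 genes gave whole reads within 0.001 of a read (a tolerance widened in proportion for large counts), and after a search over whole lengths 100% did; Fas and Csf1r needed the search, so their read counts can be off by a factor. At these depths 3 reads are 0.144 to 0.182 CPM. Reads vary by counting error as well as between libraries.

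Genes with at least 1 FPKM in at least 3 libraries (10895) were tested on log2(FPKM + 1), a pseudocount of 1 that understates changes of low genes, with limma 3.58.1 (R 4.3.3), trended empirical Bayes, group as the only term and Benjamini-Hochberg adjustment at 0.05. The members, the lists and the rule for naming genes (all members; partners past the threshold or, up to 6 a list, of smallest p; genes of one pathway beside a member) were chosen with earlier results of these data known. Other partner genes were named after their values were seen. Alternatives were a pseudocount of 0.1, no filter, a filter of 0.1 FPKM, median-of-ratios scaling, limma-voom on the recovered reads with library totals, a replicate block and each library left out. Limma-voom with median-of-ratios scaling was added after seeing the data, in place of a first run with TMM scaling that had called the same member. Promoter windows are from RefSeq.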

Additional observations from a re-analysis of the deposited data

How the results depend on the processing

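With no member past the threshold, the count of members called was also 0 under 10 of the 13 alternatives. It was 1 with median-of-ratios scaling and 1 with limma-voom and that scaling together (Igfbp4 in both), and 0 to 3 when 1 library was left out, with 3 without p16Low replicate 2. Over all genes 97 were called, 9 with no filter and 17 to 301 with 1 library left out. The replicate block gave 67 genes, 0 members and 0 regulators; same-numbered libraries had correlations of their deviations of -0.189, -0.173 and 0.014, so the numbers were not taken to pair the libraries, and whether they do is not given by the labels. The count of partners called was 0 to 1 with 1 library left out. That of regulators was 0 to 1 there, 0 with no filter and 0 with limma-voom and median-of-ratios scaling. The median log2 fold change of tested members was 0.247 over the 18 tested with median-of-ratios scaling, where Mmp2 fell below the filter. It was 0.127 over 29 members with no filter and 0.139 over 26 with a filter of 0.1 FPKM, where more low genes enter. With 1 library left out the median ran from 0.052 to 0.332. Of 246 recomputed fold changes of members, 230 kept their direction and their side of the threshold. The direction turned in 5 members. Csf1 was at -0.029 with median-of-ratios scaling and -0.07 with limma-voom besides, and -0.18 (without p16Low replicate 2) to 0.176 with 1 library left out, with -0.165 without p16High replicate 3. Fas was at -0.036 with median-of-ratios scaling and -0.037 with limma-voom besides, and -0.071 (without p16Low replicate 2) to 0.077 with 1 library left out, with -0.009 without p16High replicate 3. With 1 library left out Hgf ran over -0.149 to 0.518 and Tnfrsf1b over -0.015 to 0.605, both lowest without p16Low replicate 2, and Osm over -0.164 to 0.025, highest without p16High replicate 1. The cause was not tested. Members with few reads, such as Mmp2, Tnf and Il10, carry a wide counting error.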
